A study of Mus musculus with 12 samples.

Results

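The replication-dependent histone genes are the 68 mouse genes, of 23284 gene symbols measured, whose symbols start with Hist1h, Hist2h, Hist3h or Hist4h. They encode the linker histone H1 (6 genes) and the core histones H2a (18), H2b (19), H3 (12) and H4 (13), and were chosen by symbol alone, with no measured value. By cluster they comprise 54 Hist1, 10 Hist2, 3 Hist3 and 1 Hist4 gene, which GENCODE M21 places on chromosomes 13, 3, 11 and 6 of build GRCm38. The rule also takes in genes that are not S phase genes of somatic cells, among them the testis genes Hist1h1t, Hist1h2aa and Hist1h2ba and the pseudogene Hist3h2bb-ps.

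Total RNA was sequenced from 2o 1B MEFs, secondary mouse embryonic fibroblasts in which doxycycline (dox) switches on integrated reprogramming factors. All 12 libraries came from these cells, and all cells were transfected with an siRNA. The 6 groups of 2 libraries were siControl, sic-Myc (against Myc, a transcription factor and itself a reprogramming factor) and siGcn5 (against Gcn5, gene Kat2a, the histone acetyltransferase of the SAGA complex), each without dox or with dox for 2 days. The study asked how Myc and SAGA act in early reprogramming. The sources used here do not say whether pools or single siRNAs went into these libraries. Nor do they say in which medium and for how long the RNA cultures without dox were kept, or whether replicates were separate cultures. The p-values weigh a difference between groups against the spread of libraries within groups, pooled over the 6 groups and moderated over all genes tested. That spread may be technical. The cells are 1 line, and in bulk RNA fewer cells of a kind and less RNA per cell cannot be told apart.

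Histones package DNA, and a cell that copies its genome needs new ones at the same time. The clustered histone genes are therefore transcribed mainly in S phase, and most of their mRNAs are not polyadenylated: they end just behind a short hairpin, the stem-loop, which is bound by the stem-loop binding protein SLBP and cleaved in a reaction guided by the U7 small nuclear ribonucleoprotein. When replication stops, the same hairpin marks the mRNAs for decay. In cells that stop dividing, some of these genes also give polyadenylated mRNAs. Replacement histones such as H2afz and H3f3a lie outside the clusters and are made throughout the cell cycle as ordinary mRNAs.

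The stem-loop sets these mRNAs apart from all others, so it is shown first, for members to which the results return. GENCODE M21 transcripts of 44 members held, after the coding end, a hairpin of 6 paired bases around a 4-base loop, searched as a stem that starts with GG and ends with T and a loop that starts with TT. Of these, 26 shared one 16-base hairpin, 7 H4 genes carried another form, 6 genes one more, and the other 5 were spread over 3 forms. The sites are printed from 5′ to 3′ as DNA, with the hairpin in capitals.
Hist1h1c: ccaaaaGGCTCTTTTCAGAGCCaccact
Hist1h2ab: aacaaaGGCTCTTTTCAGAGCCacccac
Hist1h3b: cccaaaGGCTCTTTTCAGAGCCacccac
Hist2h3c1: cacaaaGGCTCTTTTCAGAGCCaccaca
Hist1h3c: aaaaaaGGCTCTTTTAAGAGCCacctaa
Hist1h4h: accaaaGGCCCTTTTCAGGGCCgcccac
Hist1h4i: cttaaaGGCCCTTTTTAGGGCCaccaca
Hist1h1c, Hist1h2ab, Hist1h3b and Hist2h3c1 carry the commonest hairpin, whereas Hist1h4i shares its form only with Hist2h4. No such hairpin was found in the annotated transcripts of the other 24 members. For 19 of those 24, under 50 bases are annotated after the coding end. The most abundant member, Hist1h2bc, is among those without a match, and its annotated transcript has 2 exons.

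The clustered histone genes were measured at low levels. Levels are given as RPKM, reads per kilobase of gene model scaled to the depth of the library. Levels of different members therefore depend on the lengths of these gene models, here recovered from the RPKM steps. Summed over the libraries, Hist1h1d had 2306 reads over 2977 bases and Hist1h2bj 2115 reads over 381 bases. Their mean levels were 0.542 and 3.80 RPKM. Over the 12 libraries, 52 of the 68 members had a mean RPKM under 1, 14 had one between 1 and 10, and 2 reached 10 or more. The median of the member means was 0.344 RPKM. The level required for testing, an RPKM reaching 1 in at least 2 of the libraries, was met by 22 members (32.4%), beside 56.6% of all gene symbols. These were 1 of 6 H1, 3 of 18 H2a, 8 of 19 H2b, 6 of 12 H3 and 4 of 13 H4 genes.

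**Figure D1:**
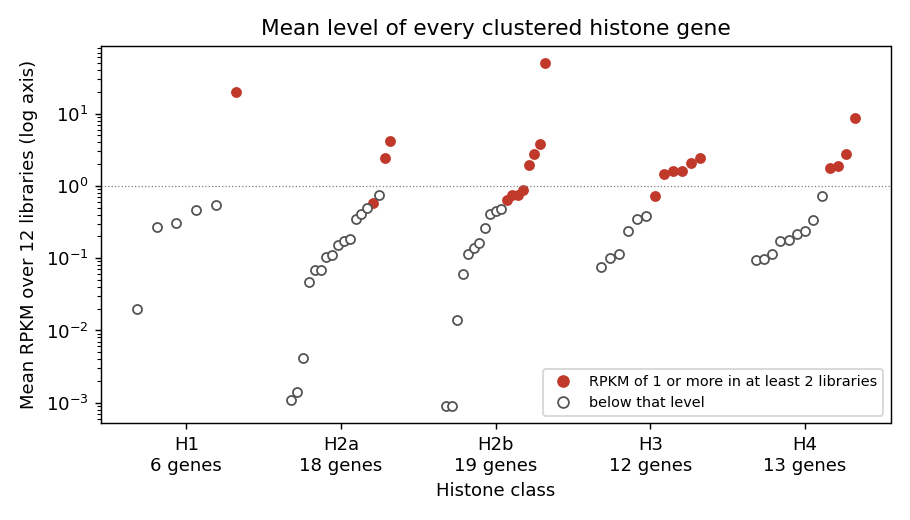
Mean RPKM over the 12 libraries (log axis) of each of the 68 clustered histone genes, by class; filled points are the 22 genes that met the level for testing, and the dotted line marks an RPKM of 1. The genes Hist1h2bc (H2b, 50.1 RPKM) and Hist1h1c (H1, 19.9 RPKM) stand above all others.

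Hist1h2bc and Hist1h1c together held 45.6 to 67.4% of the summed RPKM of all 68 members in a library. The other linker histone genes of the set, by contrast, stayed low: Hist1h1d had a mean of 0.542 RPKM (0.317 to 1.05 over the libraries), Hist1h1e 0.464 RPKM, Hist1h1a 0.304 RPKM and Hist1h1b 0.270 RPKM. Of the members that did not reach the level for testing, Hist1h2ad had the highest mean, at 0.745 RPKM. The testis gene Hist1h1t had a mean of 0.0201 RPKM, and 6 of 6 testis germ cell markers were under 1 RPKM in every library.

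S phase histone genes had a low RPKM in libraries in which replication genes were expressed. In the same libraries, Mcm5, a subunit of the replicative helicase, ranged from 4.41 to 75.7 RPKM, and Pcna, the sliding clamp of DNA polymerases, from 28.1 to 180 RPKM. Other short RNAs without a poly(A) tail, looked up after the values were seen, were also low: Rmrp ranged from 0.215 to 14.6 RPKM, Rpph1 from 0 to 3.39 RPKM and Terc from 0 to 0.854 RPKM. Not all untailed RNA was low: the ribosomal precursor Rn45s, given below, was above Rmrp, Rpph1 and Terc in every library. How far RNAs without a tail entered these libraries was not tested, so the values below are those of the reads that were counted, not of all histone mRNA.

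The members differ in how much sequence they share with other genes and in annotated length, and the part of either in the low levels was not tested. Among the 9 members for which at least 90% of 50-base transcript windows occur in no other gene, 1 reached the level for testing, and among the 16 with under 20% such windows, 5 did, with median member means of 0.27 and 0.168 RPKM. Of members with 100 or more annotated bases behind the hairpin 9 of 22 reached that level, and of those with fewer 10 of 22, with median member means of 0.476 and 0.499 RPKM. These are GENCODE lengths, which can differ from the gene models behind the RPKM: Hist1h3d had 1249 bases in GENCODE and 411 in its recovered gene model. Members with few windows of their own could have lost or exchanged reads in counting and are uncertain: this holds for Hist2h3c1 (0% of windows in no other gene), Hist1h4m (10.2%), Hist2h2aa1 (10.6%), Hist1h3i (12.4%) and Hist1h4n (14.4%).

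Gene reads recovered from the RPKM steps ran from 65.5 M to 188 M per library. Myc had 21.7 and 17.6 RPKM in siControl without dox and 174 and 155 RPKM with dox, beside 4.57 and 4.80, and 16.9 and 26.2 RPKM, in sic-Myc. Kat2a had 23.0 and 20.7, and 55.7 and 53.1 RPKM, in siControl beside 1.33 and 1.97, and 6.27 and 9.11 RPKM, in siGcn5. Each target was thus lower under its siRNA than in siControl at the same dox setting. Myc in sic-Myc with dox was nevertheless around its level in siControl without dox. All 11 fibroblast markers were found, and their summed level was between 3692 and 12569 RPKM. Replicate 2 of sic-Myc with dox stood apart in untailed RNA: it held 2420 RPKM of the ribosomal precursor Rn45s, beside 93.7 to 590 RPKM in the other libraries, and the highest Rmrp.

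Dox lowered most of the measurable histone genes in siControl cells. Changes are log2 differences of RPKM + 1 with their SE, called at a Benjamini-Hochberg adjusted p under 0.05 from limma over the 13175 genes tested. Of the 22 members tested, 15 fell and 1 rose, beside 27.9% of all genes called lower and 46.1% called higher. The median log2 change was −0.46 over the members and 0.17 over all genes tested. By class, the 1 H1 gene, 3 of 3 H2a, 4 of 8 H2b, 5 of 6 H3 and 2 of 4 H4 genes fell. A member that passed the level for testing only through 1 group had to differ from others there, which holds for Hist2h2aa1, Hist1h2bb, Hist1h2be and Hist2h2bb, and without these 4 the count was 13 lower and 1 higher of 18.

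Hist1h2bc, an H2b gene and the most abundant member, had 52.8 and 49.9 RPKM without dox and 31.8 and 27.5 RPKM with dox in siControl. The groups did not overlap, and the log2 change was −0.78 ± 0.11 (SE, adjusted p = 9.5e-05). Hist1h1c, a linker histone gene that many non-dividing cells also express, had 21.4 and 20.8 RPKM without dox and 12.2 and 10.3 RPKM with dox, a log2 change of −0.85 ± 0.13 (SE, adjusted p = 0.0002). Both dox libraries lay well below both without dox. Hist1h2bj, the next H2b gene in abundance, had 4.42 and 3.92 RPKM against 2.15 and 2.02 RPKM with dox, a log2 change of −0.74 ± 0.11 (SE, adjusted p = 0.00011).

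The largest fall on the log2 scale was that of Hist1h3c, an H3 gene, from 3.65 and 2.32 RPKM to 0.986 and 0.771 RPKM with dox (log2 change −1.07 ± 0.14 SE, adjusted p = 6.4e-05). It was followed by Hist1h3b, another H3 gene, from 5.47 and 3.55 RPKM to 2.56 and 1.25 RPKM (log2 change −0.94 ± 0.24 SE, adjusted p = 0.0043), and by the H2a gene Hist1h2ab, from 5.56 and 3.48 RPKM to 2.11 and 1.58 RPKM (log2 change −0.94 ± 0.17 SE, adjusted p = 0.0005). In each of these 3 genes the control replicates were themselves spread, with replicate 1 the higher, yet neither overlapped the dox libraries. Hist1h4m, an H4 gene, had 4.03 and 2.55 RPKM against 2.10 and 1.60 RPKM with dox (log2 change −0.58 ± 0.18 SE, adjusted p = 0.013), a call lost without siControl replicate 1 without dox (adjusted p = 0.14) or without siControl replicate 2 with dox (adjusted p = 0.096). In the Hist2 cluster, the H3 gene Hist2h3c1 had 1.46 and 1.88 RPKM against 0.716 and 0.760 RPKM with dox (log2 change −0.62 ± 0.14 SE, adjusted p = 0.0021). Hist3h2a, an H2a gene and the only Hist3 gene tested, had 3.65 and 3.84 RPKM against 2.76 and 2.73 RPKM (log2 change −0.34 ± 0.11 SE, adjusted p = 0.016), a call lost without either dox library or without replicate 2 without dox, at adjusted p-values of up to 0.08.

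Hist1h4i, the most abundant H4 gene, was the single member that rose with dox in siControl, and it was called higher with dox in all 3 arms. It had 6.69 and 5.74 RPKM without dox and 11.02 and 10.5 RPKM with dox in siControl (log2 change 0.71 ± 0.11 SE, adjusted p = 0.00013). In sic-Myc it had 7.05 and 6.82 RPKM and then 10.5 and 8.86 RPKM (log2 change 0.43 ± 0.11 SE, adjusted p = 0.0073, or 0.068 without sic-Myc replicate 1 with dox). In siGcn5 it had 7.35 and 6.60 RPKM and then 11.5 and 10.2 RPKM (log2 change 0.57 ± 0.11 SE, adjusted p = 0.0011). All 6 libraries with dox lay above all 6 without. Neither interaction was called for Hist1h4i (log2 −0.28 ± 0.15 SE for sic-Myc and −0.14 ± 0.15 SE for siGcn5, adjusted p = 0.13 and 0.51).

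**Figure D2:**
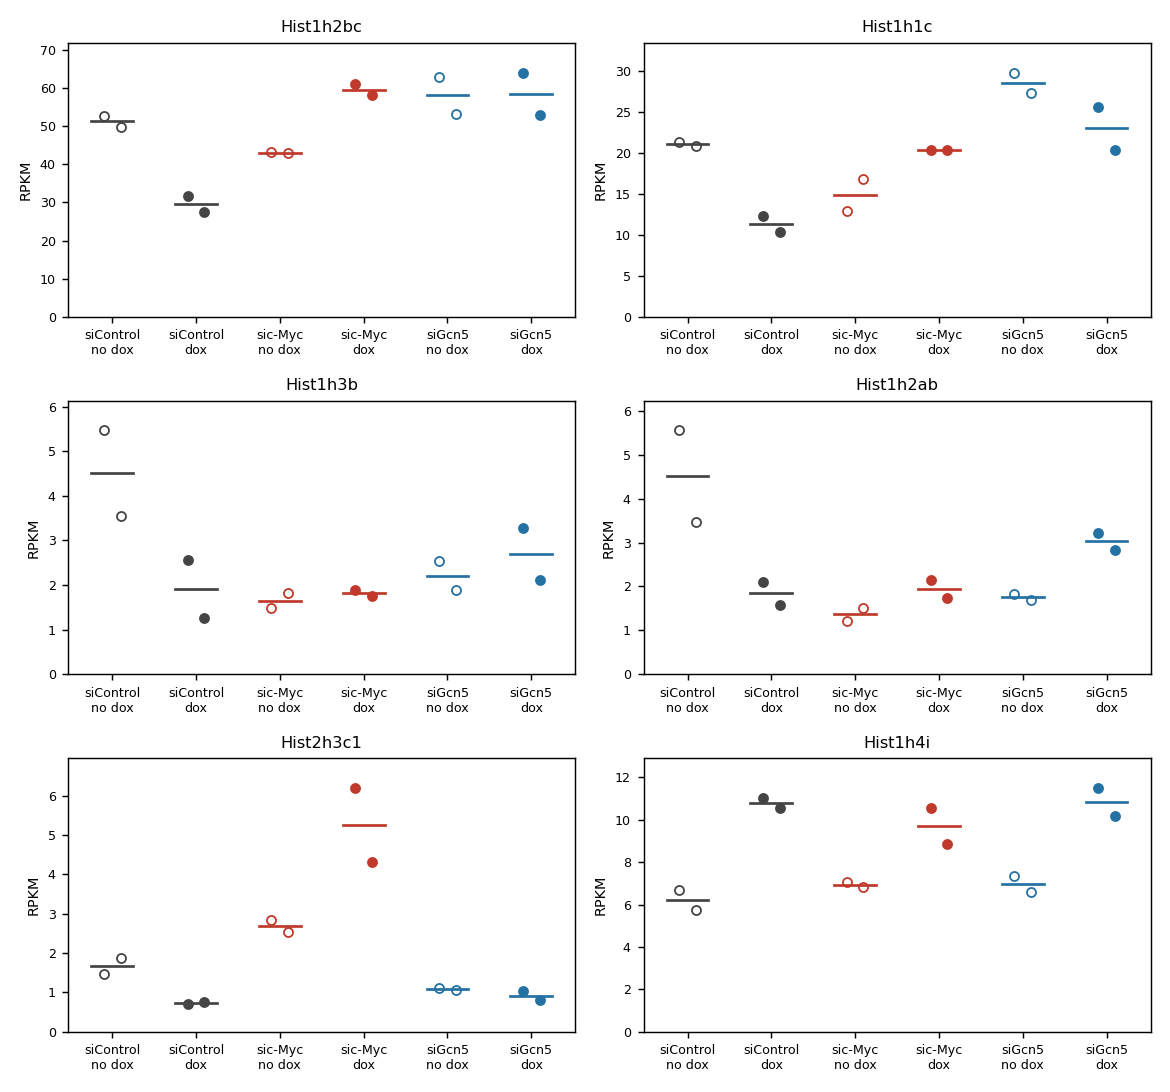
RPKM in each library (points, open without dox and filled with dox) and group mean (line) of 6 histone genes over the 6 groups. Hist1h2bc and Hist1h1c are lowest in siControl with dox, Hist1h3b and Hist1h2ab are highest in siControl without dox, Hist2h3c1 is highest in sic-Myc with dox (6.20 and 4.32 RPKM), and Hist1h4i is higher in every dox library.

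In the knockdown arms fewer members fell with dox. In sic-Myc cells, 7 of the 22 members rose with dox and 1 fell, beside 28.9% of all genes called higher and 15.9% called lower, and the median log2 change was 0.20 over the members and 0.08 over all genes. Without the 4 members that met the level for testing through 1 group, 5 of 18 were higher, and the member that fell was one of the 4. Quantile normalization turned this split to 4 higher and 5 lower, and it also moved the median log2 change of all genes to −0.079. The direction over the members as a group thus depends on the scaling, as does that over all genes, although no single call reversed. No shares of all genes called are given for that setting. Without sic-Myc replicate 1 with dox, 4 members were called. Hist1h2bc had 43.2 and 42.9 RPKM without dox and 61.1 and 58.1 RPKM with dox (log2 change 0.46 ± 0.11 SE, adjusted p = 0.0062). Hist1h1c had 13.0 and 16.9 RPKM and then 20.3 and 20.3 RPKM (log2 change 0.43 ± 0.13 SE, adjusted p = 0.022), a call lost under quantile normalization and without sic-Myc replicate 1 without dox or either replicate with dox, at adjusted p-values of up to 0.19. In both genes the dox libraries were the higher pair, the reverse of siControl.

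The largest rises with dox in sic-Myc were those of 2 H3 genes of the Hist2 cluster. Hist2h3c1 had 2.84 and 2.55 RPKM without dox and 6.20 and 4.32 RPKM with dox (log2 change 0.75 ± 0.14 SE, adjusted p = 0.0014). Hist2h3c2 had 2.22 and 1.93 RPKM and then 4.44 and 3.37 RPKM (log2 change 0.67 ± 0.12 SE, adjusted p = 0.001). The lower value with dox came in both genes from replicate 2, the library with the high Rn45s, and still exceeded all other groups. Hist2h2bb, an H2b gene of the same cluster, had 1.27 and 1.01 RPKM without dox and 0.743 and 0.733 RPKM with dox. It met the level for testing only through sic-Myc without dox, so its lower values with dox are a description and no evidence of a fall.

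In siGcn5 cells, 5 members rose with dox and 2 fell, beside 36.0% of all genes called higher and 22.4% called lower, with a median log2 change of 0.10 over the members and 0.08 over all genes. Without the same 4 members, 4 of 18 were higher and 1 lower. Quantile normalization turned the split to 3 higher and 8 lower, with the median log2 change of all genes moved to −0.075. Without siGcn5 replicate 1 without dox, 3 members were called. Hist1h2bc did not pass the test, with 63.0 and 53.3 RPKM without dox and 64.1 and 52.9 RPKM with dox (log2 change 0.01 ± 0.11 SE), nor did Hist1h1c, with 29.8 and 27.3 against 25.6 and 20.4 RPKM (log2 change −0.31 ± 0.13 SE, adjusted p = 0.07). The largest rises were those of Hist1h3i, from 0.635 and 0.312 RPKM to 1.51 and 1.07 RPKM (log2 change 0.64 ± 0.14 SE, adjusted p = 0.0037), and of the H4 gene Hist1h4h, from 0.523 and 0.944 RPKM to 1.71 and 1.60 RPKM (log2 change 0.63 ± 0.12 SE, adjusted p = 0.0018). In both genes the dox libraries lay above those without. Hist3h2a fell from 6.99 and 5.70 RPKM to 5.20 and 4.20 RPKM (adjusted p = 0.016), a call lost without siGcn5 replicate 1 without dox or replicate 2 with dox, at adjusted p-values of up to 0.13. Hist2h2bb fell from 0.736 and 0.446 RPKM to 0.240 and 0.307 RPKM (adjusted p = 0.02), a call lost without replicate 1 of siGcn5 either without or with dox, at adjusted p-values of up to 0.18.

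The differences between the arms were tested as interactions, the log2 change with dox under an siRNA minus that in siControl. For sic-Myc, 14 of the 22 members had a higher interaction and 0 a lower one in limma, beside 24.8% and 29.3% of all genes. At an unadjusted p under 0.05 the counts were 14 and 0, and the count-based fit gave 9 and 0. For siGcn5, 9 were higher and 0 lower in limma, beside 11.4% and 14.5% of all genes. The counts were 17 and 0 at an unadjusted p and 6 and 0 in the count-based fit. These shares of all genes are those of the adjusted limma calls. None is given for the unadjusted and count-based counts, which therefore cannot be weighed against all genes. Leaving out the 4 members that met the level for testing through 1 group, which for sic-Myc with dox and siControl without dox fixes part of the outcome, 11 of 18 were higher for sic-Myc and 8 of 18 for siGcn5. The median log2 interaction was 0.57 for sic-Myc and 0.52 for siGcn5, beside −0.03 and −0.08 over all genes. Both sets of interactions rest on the same siControl libraries. Hist1h1c (log2 1.29 ± 0.19 SE, adjusted p = 0.00038), Hist1h2bc (log2 1.23 ± 0.15 SE, adjusted p = 0.00017) and Hist2h3c1 (log2 1.36 ± 0.20 SE, adjusted p = 0.00034) were among the largest for sic-Myc. Those for siGcn5 were led by Hist1h2ab (log2 1.48 ± 0.24 SE, adjusted p = 0.0042) and Hist1h3c (log2 1.36 ± 0.20 SE, adjusted p = 0.0033). Without siControl replicate 1 without dox the counts were 9 for sic-Myc and 5 for siGcn5, and without siControl replicate 2 with dox 5 for siGcn5.

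**Figure D3:**
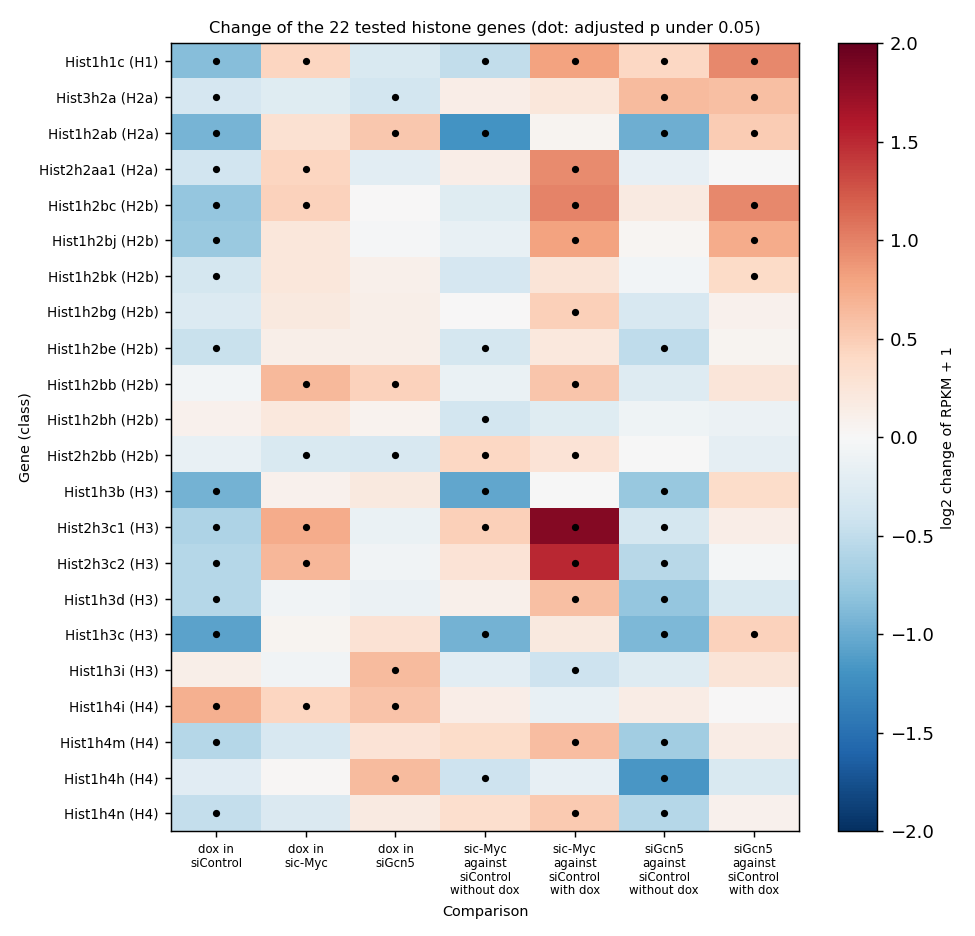
Log2 change of RPKM + 1 (colour) of the 22 tested histone genes in 7 comparisons, with a dot where the adjusted p from limma was under 0.05. The first column, dox in siControl, holds 15 falls and 1 rise (Hist1h4i), and the darkest cells are Hist2h3c1 and Hist2h3c2 in sic-Myc against siControl with dox (log2 1.83 and 1.51).

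Without dox, both siRNAs left Hist1h2ab, Hist1h3b and Hist1h3c of the Hist1 cluster lower than siControl. With sic-Myc, 7 of the 22 members were lower and 2 higher, beside 10.7% of all genes called lower and 12.8% called higher, and the median log2 difference was −0.15 over the members and 0.02 over all genes. Without the same 4 members, 6 of 18 were lower and 1 higher. Hist1h2ab had 1.21 and 1.52 RPKM in sic-Myc beside 5.56 and 3.48 RPKM in siControl (log2 difference −1.20 ± 0.17 SE, adjusted p = 0.0014). Hist1h3b had 1.49 and 1.81 RPKM beside 5.47 and 3.55 RPKM (log2 difference −1.04 ± 0.24 SE, adjusted p = 0.011, or up to 0.099 without replicate 1 of either group). Hist1h3c had 0.999 and 1.10 RPKM beside 3.65 and 2.32 RPKM (log2 difference −0.94 ± 0.14 SE, adjusted p = 0.002). The sic-Myc libraries were below siControl in all 3 genes. Going the other way was Hist2h3c1, with 2.84 and 2.55 RPKM beside 1.46 and 1.88 RPKM (log2 difference 0.47 ± 0.14 SE, adjusted p = 0.033), a call lost without any 1 of the 4 libraries and with no filter, at adjusted p-values of up to 0.21. The other member called higher was Hist2h2bb, at 1.27 and 1.01 RPKM beside 0.617 and 0.581 RPKM, which was tested only because it was high in sic-Myc without dox. This comparison rests on single libraries: 2 members were called without siControl replicate 1, 4 without siControl replicate 2 and 2 without sic-Myc replicate 1.

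With siGcn5 and no dox, 10 members were lower and 2 higher, beside 20.4% of all genes called lower and 36.9% called higher. The median log2 difference was −0.29 over the members and 0.12 over all genes. Without the 4 members named above, 9 of 18 were lower and 2 higher. In this comparison 5 of 6 H3 and 3 of 4 H4 genes were lower, as were 1 of 3 H2a and 1 of 8 H2b genes. Among the H3 genes, Hist2h3c1 lost its call under 9 of 18 alternatives (adjusted p up to 0.28), and the H4 genes Hist1h4m and Hist1h4n lost theirs without siControl replicate 1 or siGcn5 replicate 2 (adjusted p up to 0.07 and 0.1). Hist1h4h had 0.523 and 0.944 RPKM beside 2.90 and 2.77 RPKM in siControl (log2 difference −1.16 ± 0.12 SE, adjusted p = 5.2e-05). Hist1h2ab had 1.82 and 1.69 RPKM beside 5.56 and 3.48 RPKM (log2 difference −0.98 ± 0.17 SE, adjusted p = 0.00072). Hist1h3c had 1.24 and 0.965 RPKM beside 3.65 and 2.32 RPKM (log2 difference −0.90 ± 0.14 SE, adjusted p = 0.00043). None of these 3 genes overlapped between the groups. Hist1h3b, with 2.53 and 1.89 RPKM beside 5.47 and 3.55 RPKM (log2 difference −0.77 ± 0.24 SE, adjusted p = 0.018), lost its call without siControl replicate 1 or siGcn5 replicate 2, at adjusted p-values of up to 0.15. The 2 higher members were Hist3h2a, with 6.99 and 5.70 RPKM beside 3.65 and 3.84 RPKM (log2 difference 0.63 ± 0.11 SE, adjusted p = 0.00082), and Hist1h1c, with 29.8 and 27.3 RPKM beside 21.4 and 20.8 RPKM (log2 difference 0.42 ± 0.13 SE, adjusted p = 0.021). The call for Hist1h1c was lost under quantile normalization and median-ratio scaling and without either siControl library or siGcn5 replicate 1, at adjusted p-values of up to 0.12.

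With dox, Hist1h2bc and Hist1h1c were above siControl in both knockdowns. In sic-Myc, 12 of the 22 members were higher and 1 lower, beside 37.7% of all genes called higher and 37.1% called lower, with a median log2 difference of 0.37 over the members and 0.02 over all genes. Of these, Hist2h2aa1 and Hist1h2bb were tested only because they were high in this very group, and without the same 4 members 9 of 18 were higher and 1 lower. Quantile normalization gave 11 higher and 3 lower. The 2 largest differences were those of H3 genes of the Hist2 cluster. Hist2h3c1 had 6.20 and 4.32 RPKM beside 0.716 and 0.760 RPKM in siControl with dox (log2 difference 1.83 ± 0.14 SE, adjusted p = 1.2e-06), and Hist2h3c2 had 4.44 and 3.37 RPKM beside 0.781 and 0.645 RPKM (log2 difference 1.51 ± 0.12 SE, adjusted p = 1.5e-06). Hist1h2bc (log2 difference 0.99 ± 0.11 SE, adjusted p = 1.5e-05) and Hist1h1c (log2 difference 0.80 ± 0.13 SE, adjusted p = 0.00028) were higher too. The member that was lower was Hist1h3i, with 0.347 and 0.517 RPKM beside 1.09 and 0.724 RPKM (log2 difference −0.41 ± 0.14 SE, adjusted p = 0.025), a call lost in a count-based fit and without replicate 1 of either group, at adjusted p-values of up to 0.18.

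In siGcn5 with dox, 7 members were higher than in siControl with dox and 0 lower, beside 31.4% and 24.9% of all genes, so the share of members called higher was near the background. At an unadjusted p under 0.05, 7 were higher and 2 lower. Quantile normalization gave 5 higher and 4 lower, median-ratio scaling 7 and 2, and the count-based fit 4 and 0. No shares of all genes are given for these settings or for the unadjusted counts. Without siControl replicate 2 with dox, 4 members were called. Hist1h1c had 25.6 and 20.4 RPKM beside 12.2 and 10.3 RPKM (log2 difference 0.96 ± 0.13 SE, adjusted p = 0.00025). Hist1h2bc had 64.1 and 52.9 RPKM beside 31.8 and 27.5 RPKM (log2 difference 0.95 ± 0.11 SE, adjusted p = 0.0001). Hist2h3c1 did not pass the test here, at 1.02 and 0.799 RPKM beside 0.716 and 0.760 RPKM (log2 difference 0.14 ± 0.14 SE, adjusted p = 0.42).

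The summed H3 genes of the 2 large clusters followed different orders over the groups. The Hist2 sum was in effect that of Hist2h3c1 and Hist2h3c2, as Hist2h3b had a mean of 0.0998 RPKM. The 3 Hist2 H3 genes summed to 9.27 ± 2.04 RPKM (SD, n = 2) in sic-Myc with dox, 4.83 ± 0.46 RPKM in sic-Myc without dox, 3.34 ± 0.26 RPKM in siControl without dox. They were lowest in siControl with dox and in siGcn5 without and with dox, at 1.43 to 1.93 RPKM in the 6 libraries, where siGcn5 with dox spanned the values of siControl with dox. The first 3 groups did not overlap with each other or with the rest. The 9 Hist1 H3 genes summed to 11.9 ± 2.88 RPKM in siControl without dox and to between 5.11 and 7.58 RPKM in the other 5 groups, whose libraries all lay below both of siControl without dox. Hist1h3b and Hist1h3c made up most of that highest sum (4.51 and 2.98 RPKM), and not every Hist1 H3 gene followed its order. Hist1h3d had a mean of 2.39 RPKM in sic-Myc without dox beside 2.17 RPKM in siControl without dox. Hist1h3i had its highest group mean in siGcn5 with dox, at 1.29 RPKM. Hist2h3c1 and Hist2h3c2 lie as a mirrored pair, with Hist2h2aa1 and Hist2h2aa2 between them, in 10402 bases of chromosome 3 (GRCm38 96238108 to 96248509), and share much of their sequence, so reads cannot be assigned between them with certainty. Hist2h2aa1, which met the level for testing only through sic-Myc with dox, had 1.52 and 1.18 RPKM there beside 0.305 and 0.133 RPKM in siControl with dox, given as a description.

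**Figure D4:**
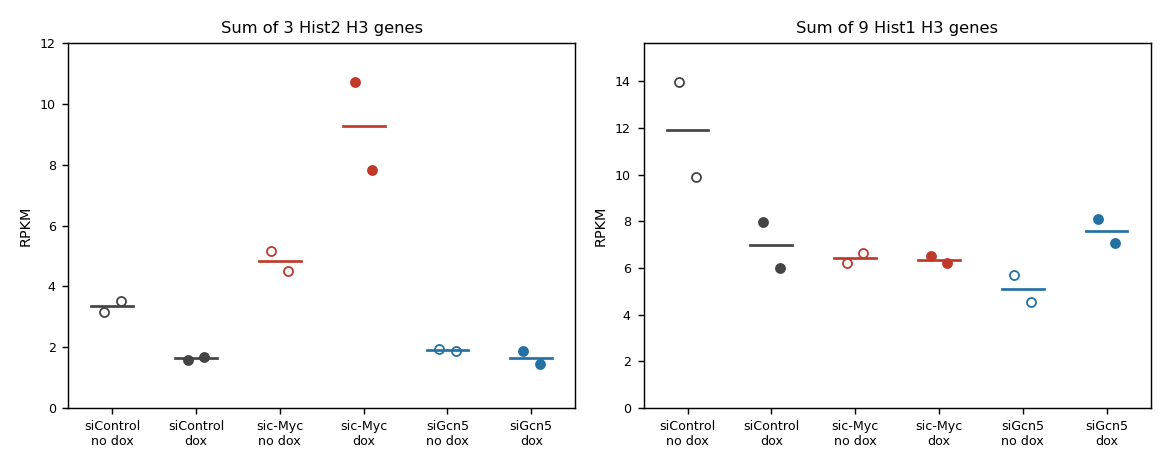
Summed RPKM in each library (points, open without dox and filled with dox) and group mean (line) of the 3 H3 genes of the Hist2 cluster, left, and the 9 H3 genes of the Hist1 cluster, right. The Hist2 sum is highest in sic-Myc with dox (10.7 and 7.83 RPKM) and the Hist1 sum in siControl without dox (14.0 and 9.88 RPKM).

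Hist1h3c, Hist1h2bb, Hist1h2ab and Hist1h3b are 4 consecutive members within 7914 bases of chromosome 13 (GRCm38 23744973 to 23752886). Hist1h3c, Hist1h2ab and Hist1h3b were all highest in siControl without dox and were called lower in the 3 comparisons that share it as control, whereas Hist1h2bb, the H2b gene between them, was highest in sic-Myc with dox, the group through which it met the level for testing. Hist1h2bb had 0.857 and 0.498 RPKM in siControl without dox, 0.658 and 0.571 RPKM in siControl with dox, and 1.70 and 1.10 RPKM in sic-Myc with dox, and its log2 change with dox in siControl was −0.05 ± 0.14 (SE, adjusted p = 0.77). No test compared these neighbours, and the high place of Hist1h2bb in sic-Myc with dox was partly fixed by the level for testing. The promoters of the 4 neighbours are shown as a description, beside that of Hist1h4i, which rose with dox. Each is given as the 120 bases before the RefSeq start (GRCm38.p6, coding strand, from 5′ to 3′). Capitals mark the CCAAT box, the octamer core (ATGCAAA), the TATA box (TATAAA) and the H1 box, known from linker histone promoters (AAACACA), on either strand.
Hist1h3c, chr13:23745522-23745641, minus strand: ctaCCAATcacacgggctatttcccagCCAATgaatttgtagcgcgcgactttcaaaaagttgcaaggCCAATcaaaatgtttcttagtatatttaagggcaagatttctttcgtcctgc
Hist1h2bb, chr13:23746614-23746733, plus strand: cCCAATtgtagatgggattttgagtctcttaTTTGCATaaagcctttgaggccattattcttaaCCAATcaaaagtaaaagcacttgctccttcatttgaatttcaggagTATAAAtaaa
Hist1h2ab, chr13:23750968-23751087, plus strand: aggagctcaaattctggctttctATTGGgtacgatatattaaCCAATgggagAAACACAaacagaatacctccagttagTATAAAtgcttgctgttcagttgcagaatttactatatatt
Hist1h3b, chr13:23752225-23752344, plus strand: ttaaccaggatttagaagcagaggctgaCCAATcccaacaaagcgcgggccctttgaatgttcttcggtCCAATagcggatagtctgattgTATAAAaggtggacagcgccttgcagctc
Hist1h4i, chr13:22041363-22041482, minus strand: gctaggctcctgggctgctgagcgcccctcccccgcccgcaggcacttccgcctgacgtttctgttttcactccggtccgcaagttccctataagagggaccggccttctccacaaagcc
The 4 neighbours all hold CCAAT, whereas the window of Hist1h4i holds none of these motifs. This is not particular to Hist1h4i: the same windows of the H4 genes Hist1h4m, Hist1h4h and Hist1h4n hold none either. In each of these H4 genes, both siControl libraries with dox lay below both without. In windows from 250 bases before to 50 after the start, CCAAT on either strand was found in 52 of 61 members matched to the RefSeq table (85.2%), beside 37.4% of all 32851 promoters. By class it was found in 6 of 6 H1, 17 of 17 H2a, 16 of 16 H2b, 10 of 10 H3 and 3 of 12 H4 genes. TATAAA was found in 57.4% of matched members, Hist1h4i among them, beside 13.6% of all promoters. The octamer core, bound by Oct factors and known from H2b promoters, was found in 24.6% beside 4.6% of all promoters, and in 7 of 16 H2b and 7 of 17 H2a genes. The H1 box was found in 5 of 6 H1 genes beside 7.2% of all promoters, and the E-box CACGTG, a motif bound by Myc, in 0 of 61 members beside 7.2%. These are matches of letters and not binding sites.

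Genes that make, process and deposit histones were also measured, by lists chosen by name. S phase and replication genes went the other way from the histone genes with dox in siControl: 39 of 41 rose and 1 fell, beside 46.1% and 27.9% of all genes. Their median log2 change was 1.01 beside 0.17 over all genes. Mcm10, a replication initiation factor, had 5.03 and 3.91 RPKM without dox and 17.5 and 20.5 RPKM with dox (log2 change 1.88, adjusted p = 0.00017), and Cdca7 (log2 change 2.20) and Rfc5 (log2 change 1.71) rose too. The summed RPKM of the 68 histone genes was 142 and 125 without dox and 94.0 and 83.0 with dox in siControl, while that of the 41 replication genes was 751 and 657 without dox and 1490 and 1630 with dox. The histone sum thus stood at 18.9 and 19.0% of the replication sum without dox and at 6.31 and 5.09% with dox. The part of any change in the share of S phase cells in the histone values was not tested.

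The knockdown arms were as follows. In sic-Myc the histone sum was 109 and 110 RPKM without dox and 150 and 140 RPKM with dox, beside replication sums of 689 and 574, and 570 and 605 RPKM. With dox, 2 of 41 replication genes fell in sic-Myc, beside 15.9% of all genes, with a median log2 change of −0.12. In siGcn5 the histone sum was 138 and 121, and 146 and 124 RPKM, beside replication sums of 323 and 381, and 558 and 797 RPKM. With dox, 36 of 41 replication genes rose in siGcn5, beside 36.0% of all genes. The histone sum there stood at 42.6 and 31.7% of the replication sum without dox and at 26.2 and 15.6% with dox, lower with dox as in siControl, whereas in sic-Myc it stood at 15.9 and 19.1% and then at 26.2 and 23.2%. Without Hist1h2bc and Hist1h1c, the histone sum in siControl was 68.02 and 54.3 RPKM without dox and 49.9 and 45.2 RPKM with dox. Epithelial markers moved with dox as well: the 6 markers summed to 6.54 to 7.53 RPKM in siControl without dox, 451 to 514 RPKM in siControl with dox, 460 to 535 RPKM in siGcn5 with dox and 1125 to 1241 RPKM in sic-Myc with dox. Fibroblast markers summed to 12433 to 12569 RPKM in siControl without dox and 3692 to 4143 RPKM with dox. The part of either in the histone values was not tested.

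**Figure D5:**
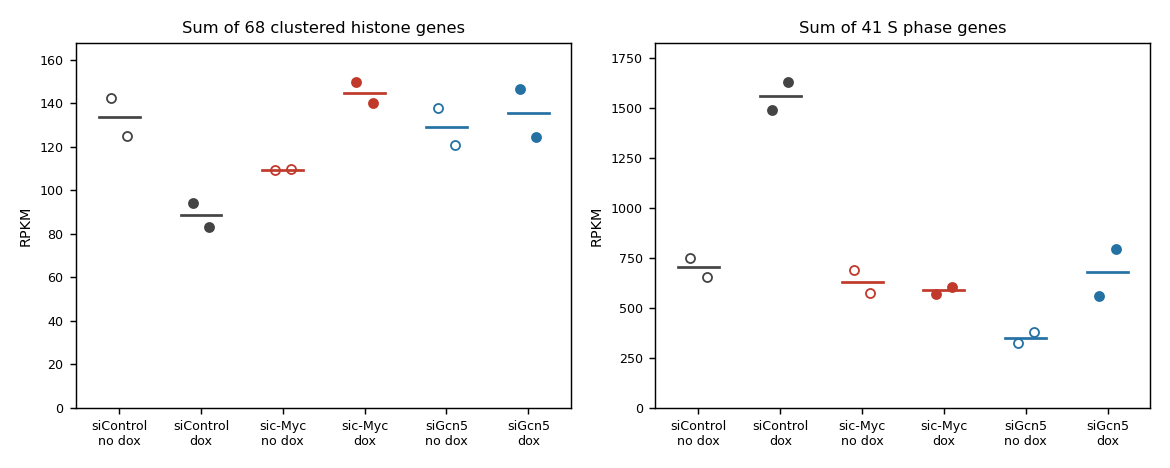
Summed RPKM in each library (points, open without dox and filled with dox) and group mean (line) of the 68 clustered histone genes, left, and of 41 S phase and replication genes, right. In siControl the histone sum is lower with dox (94.0 and 83.0 RPKM) than without (142 and 125 RPKM), while the replication sum is higher.

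Histone pre-mRNA processing and mRNA decay factors rose in siControl with dox in 14 of 17 tested, beside 46.1% of all genes called higher. Their median log2 change was 0.65, beside 0.17 over all genes. Cstf2 (log2 1.43), Ncbp1, the large cap-binding subunit (log2 1.32), and Cpsf3, the endonuclease that cuts histone pre-mRNA (log2 1.17), changed most. With sic-Myc and dox, 15 of the 17 were lower than in siControl with dox and 2 higher, beside 37.1% and 37.7% of all genes. Slbp, which binds the stem-loop, had 23.4 and 20.8 RPKM without dox and 33.9 and 36.7 RPKM with dox in siControl (log2 change 0.65 ± 0.12 SE, adjusted p = 0.00057), and 24.0 and 23.4, and 23.9 and 25.2 RPKM, in siGcn5 (interaction log2 −0.61, adjusted p = 0.026). Of histone chaperones and deposition factors, 17 of 18 rose with dox in siControl, beside 46.1% of all genes, led by Nasp (log2 change 1.68), a carrier of newly made H3 and H4. In sic-Myc 1 of 18 fell with dox, beside 15.9% of all genes.

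Of histone genes outside the clusters, 7 of 11 tested rose with dox in siControl and 2 fell, beside 46.1% of all genes called higher and 27.9% called lower, with a median log2 change of 0.35 beside 0.17. H2afz, the replacement H2A, had 185 and 180 RPKM without dox and 372 and 406 RPKM with dox (log2 change 1.09 ± 0.16 SE, adjusted p = 0.00015), well above any clustered H2a gene. H1f0, a replacement linker histone of differentiated and non-dividing cells, fell in siControl from 18.5 and 21.99 RPKM to 15.0 and 15.9 RPKM with dox (log2 change −0.37 ± 0.10 SE, adjusted p = 0.0065). It had 15.7 and 18.7, and then 28.0 and 29.9 RPKM, in sic-Myc (interaction log2 1.09, adjusted p = 0.0002), and 14.3 and 14.0, and then 12.2 and 11.7 RPKM, in siGcn5, where Hist1h1c was at its highest.

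The 46 members below the level for testing were fitted only when no filter was applied, and changes of values this low are strongly compressed on the log2(RPKM + 1) scale. With dox in siControl, 4 were lower and 2 higher, beside 19.5% and 33.6% of the 20788 genes in that fit. At an unadjusted p under 0.05, 5 were lower and 5 higher, so these members did not fall as a group. With dox in sic-Myc, 10 were higher and 0 lower in limma, beside 23.5% and 10.7%, with 14 and 1 at an unadjusted p under 0.05. In sic-Myc against siControl with dox, 6 were higher and 3 lower, beside 29.4% and 25.8%, with 7 and 4 at an unadjusted p. In siGcn5 against siControl without dox, 7 were lower and 0 higher in limma, beside 13.4% and 24.8%, with 8 and 0 at an unadjusted p. No shares of all genes are given for the unadjusted counts. Among them Hist2h2ac, the H2a gene of the Hist2 cluster, had 0.495 and 0.376 RPKM in siControl without dox, 0.193 and 0.105 RPKM with dox, and 0.861 and 0.709 RPKM in sic-Myc with dox, the highest of the 6 groups. The linker histone genes Hist1h1d and Hist1h1e were called higher with dox in sic-Myc, Hist1h1d from 0.389 and 0.591 RPKM to 1.05 and 0.721 RPKM. For the remaining members no order of groups is given. A low RPKM did not always mean few reads: Hist2h2be had 68 to 345 reads per library over a gene model of 2618 bases. Hist1h2ac had 64 to 237 reads per library over 2493 bases.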

How the data were processed

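The authors deposited 1 table per library holding RPKM for 23284 gene symbols. The submitters' processing notes name mm9, Bowtie 0.12.8, TopHat2 2.0.9, affy, HTSeq and edgeR but not what each was used for. The sources used here do not give the gene models or how strand and shared reads were handled. Per the labels' protocols, libraries were made with a stranded total RNA kit with ribosomal RNA removal. RPKM was used as deposited, and it measures a share of the library, not RNA per cell.

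The 13175 genes whose RPKM reached 1 in 2 or more of the 12 libraries were tested with limma 3.58.1 in R 4.3.3 on log2(RPKM + 1), with an intensity trend, 1 term per group, all 12 libraries and two-sided Benjamini-Hochberg adjustment over all genes. On simulated data for dox in siControl (13175 genes, 200 changed), 100% of genes changed 2-fold were recovered. Whole reads recovered from the RPKM steps (tolerance 0.03 read, 20788 genes) gave depths of 65.5 M to 188 M and served a count-based alternative (limma voom), added after the data were seen. In a simulated check, 95.6% of 2984 genes came back with exact reads. Replicates differed by more than sampling noise (chi-square per degree of freedom 28.7 to 79.4).

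All values were given for the 2 most abundant members of each class, for the 2 largest called rises and falls of each comparison and for up to 2 called members against the majority, with up to 3 called genes of each list. Hist2h2aa1, Hist1h2bb and Hist2h2ac were added after their values were seen. Members and lists were chosen with earlier results of these data known. Sequences came from GENCODE M21 and RefSeq (GRCm38); no coordinates of mm9 were used.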

Additional observations from a re-analysis of the deposited data

Results flagged for a closer look

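The response to dox differed between sic-Myc and siControl for 14 histone genes by the test of the interaction itself (limma, adjusted p under 0.05). The log2 interactions were 1.29 for Hist1h1c, 1.25 for Hist1h2ab, 0.70 for Hist1h2bb, 1.23 for Hist1h2bc, 0.56 for Hist1h2be, 0.47 for Hist1h2bg, 0.97 for Hist1h2bj, 0.59 for Hist1h2bk, 1.03 for Hist1h3b, 1.13 for Hist1h3c, 0.51 for Hist1h3d, 0.81 for Hist2h2aa1, 1.36 for Hist2h3c1 and 1.24 for Hist2h3c2. The calls were lost under 13 alternatives for Hist1h2bg, 10 for Hist1h3d, 6 for Hist1h3b, 3 for Hist1h2bk and 2 for Hist1h2bb. Hist2h2aa1 and Hist1h2bb were tested only because they were high in sic-Myc with dox, and Hist1h2be only because it was high in siControl without dox, so their interactions are partly fixed by that choice.

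The response to dox differed between siGcn5 and siControl for 9 histone genes by the same test. The log2 interactions were 1.48 for Hist1h2ab, 0.78 for Hist1h2bc, 0.56 for Hist1h2be, 0.71 for Hist1h2bj, 1.13 for Hist1h3b, 1.36 for Hist1h3c, 0.85 for Hist1h4h, 0.84 for Hist1h4m and 0.51 for Hist2h3c2. The siControl libraries are shared with the sic-Myc interactions. Hist1h2be was tested only because it was high in siControl without dox, so its interaction is partly fixed by that choice here too. The calls for Hist1h3b and Hist1h4m were lost under 7 alternatives each, that for Hist2h3c2 under 12 and that for Hist1h2be under 4.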

How the results depend on the processing

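Of 95 calls of single histone genes, 53 were kept under all alternatives run, 42 were lost under at least 1 and 0 changed direction. A mean RPKM of at least 5 left 3 members, of which 3 were called for dox in siControl, 3 for dox in sic-Myc, 1 for dox in siGcn5, 1 and 2 for sic-Myc against siControl without and with dox, 1 and 2 for siGcn5 against siControl without and with dox, and 2 and 1 for the interactions of sic-Myc and siGcn5. With no filter, 18 of 68 members were called for dox in sic-Myc, 12 for dox in siGcn5 and 22 for sic-Myc against siControl with dox. Quantile normalization gave 11 calls for dox in siGcn5. The count-based fit gave 4 calls for siGcn5 against siControl with dox and 9 for the interaction of sic-Myc. Leaving out 1 library gave 11 to 17 calls for dox in siControl, 4 to 8 for dox in sic-Myc, 3 to 8 for dox in siGcn5, 2 to 10 and 10 to 14 for sic-Myc without and with dox, 8 to 13 and 4 to 9 for siGcn5 without and with dox, and 9 to 14 and 5 to 12 for the interactions; a lone library is then assumed to vary like the other groups. Quantile normalization moved the median log2 change of all genes from 0.17 to 0 for dox in siControl and from 0.08 to −0.08 for dox in sic-Myc and in siGcn5. Median-ratio scaling moved it to 0.03 for dox in siControl and from 0.12 to 0.01 for siGcn5 without dox. No label ties replicate numbers to a shared source, so the samples were not treated as paired. Deviations of same-numbered libraries correlated at 0.09 to 0.49 over 15 pairs of groups, 14 of them over 0.1, so a shared replicate effect is possible; with the replicate block the counts were 17, 10 and 7 for dox in siControl, sic-Myc and siGcn5, 12 and 13 for sic-Myc without and with dox, 13 and 8 for siGcn5 without and with dox, and 15 and 12 for the interactions. With 2 libraries a group and most members under 1 RPKM, a missing call does not show that levels were alike.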
